A study of Mus musculus with 9 samples.

Results

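Many genes have close copies in the genome, and a probe that matches several copies cannot be credited to any of them. On the array used here, 1621 of the 35556 probe sets were annotated with at least 2 gene symbols, and these shared probe sets were kept as rows of their own and named by all their symbols. The rule for their choice used the annotation only and no measured value, but it was set with earlier results of these data known. Of the other probe sets, 21789 listed 1 symbol and 12146 listed none. The arrays measured 3 lines of mouse mammary carcinoma cells with 3 arrays each. 4T1 is a metastatic, triple-negative line from a BALB/c mouse and was untreated. MR20 are the 4T1 cells that survived methotrexate, a folate antagonist, for which the labels give 20 µg/ml and the text of the study ng/ml. DR500 are the 4T1 cells that survived doxorubicin, a DNA-intercalating poison of topoisomerase II, raised stepwise to 500 ng/ml. Drug was withdrawn and the survivors recovered for about 2 weeks before RNA was taken, so the arrays describe surviving cells and not cells under drug. Some label fields of the DR500 arrays name methotrexate, whereas their treatment protocol and the methods of the study name doxorubicin. The 4T1 cells were cultured in parallel with MR20, and an untreated culture that the extraction protocol of DR500 names is not identified with these arrays. The triplicates, called biological replicates in the titles of 4T1 and MR20, came from wells of a culture, so the p-values measure the spread between wells, which may be technical.

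Gene families arise by duplication, and young copies keep nearly the same sequence and often the same neighbours. In the mouse, many interferon-induced genes belong to such families, among them the immunity-related GTPases, the guanylate-binding proteins and the oligoadenylate synthetases. Interferon acts on many of them through a short promoter element with repeated GAAA blocks, and their products are antiviral effectors. Other families of recent copies serve smell, pheromone sensing, drug conjugation or the packing of DNA, and each is used in its own tissue.

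A level is given as the log2 value that robust multi-array normalization (RMA) assigns to a probe set, and a change is the difference of line means on this scale. A shared probe set was called changed when the adjusted p of limma was under 0.05 and the change exceeded 2-fold. In MR20 against 4T1, 41 of the 1621 shared probe sets rose (2.53%), beside 1.04% of all probe sets, and 10 fell (0.617%), beside 0.945% of all. In DR500 against 4T1, 13 rose (0.802%), beside 1.61% of all, and 39 fell (2.41%), beside 4.27% of all. Directly between the selected lines, 9 were higher in DR500 (0.555%), beside 1.89% of all, and 49 were lower (3.02%), beside 3.77% of all. Only the rises in MR20 thus made up a larger share of the shared probe sets than of the array. Among probe sets of 1 symbol the share of rises in MR20 was 1.35% and that of falls in DR500 3.05%. All called shared probe sets had arrays that did not overlap between the lines compared. The call rule makes such a separation likely, and its share over all probe sets was not counted, so it adds no support. Since 4T1 entered both comparisons with the selected lines, their changes are given side by side and not correlated.

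In all, 85 shared probe sets were called in at least 1 comparison. They belonged to 51 groups of probe sets linked by a common symbol, out of 593 such groups. In MR20, 20 groups held a rise and 9 a fall, and in DR500 9 groups held a rise and 26 a fall. Of the probe sets, 11 rose in MR20 and fell in DR500, 3 rose in both lines, 7 fell in both, and none fell in MR20 and rose in DR500. Neither these joint calls nor the calls by group or in any comparison were counted over all probe sets. The counts thus describe the shared probe sets and do not set them apart from the rest of the array. The cells were measured in bulk, so a lower level per cell and fewer cells with the RNA cannot be told apart.

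The promoters of 2 pairs of paralogues, Tgtp1 with Tgtp2 and Oas1a with Oas1g, are shown because their shared probe sets rose most among pairs of named genes, and those of Ly6c1 and Ly6c2 because their probe sets rose in both selected lines. The sequences are the 250 bases before the gene start on the strand of the gene in RefSeq (build GRCm38.p6), written 5′ to 3′, at chr11:48992247-48992496 (Tgtp1), chr11:49064213-49064462 (Tgtp2), chr5:120907526-120907775 (Oas1a), chr5:120887614-120887863 (Oas1g), chr15:75048838-75049087 (Ly6c1) and chr15:75111972-75112221 (Ly6c2), all on the minus strand. For Ly6c1 and Ly6c2, for which 2 starts are listed each, the first was taken. Capitals mark matches to a motif of GAAA, any 2 bases and GAAA again, searched on both strands.
Tgtp1: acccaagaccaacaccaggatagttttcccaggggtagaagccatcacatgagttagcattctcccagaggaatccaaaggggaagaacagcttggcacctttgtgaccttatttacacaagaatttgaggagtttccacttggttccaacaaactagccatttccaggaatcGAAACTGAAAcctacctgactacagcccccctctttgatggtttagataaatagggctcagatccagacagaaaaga
Tgtp2: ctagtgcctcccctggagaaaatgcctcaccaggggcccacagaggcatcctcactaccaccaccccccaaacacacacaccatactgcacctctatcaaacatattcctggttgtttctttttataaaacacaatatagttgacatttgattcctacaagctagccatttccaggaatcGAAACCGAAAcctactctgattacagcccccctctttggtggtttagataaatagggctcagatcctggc
Oas1a: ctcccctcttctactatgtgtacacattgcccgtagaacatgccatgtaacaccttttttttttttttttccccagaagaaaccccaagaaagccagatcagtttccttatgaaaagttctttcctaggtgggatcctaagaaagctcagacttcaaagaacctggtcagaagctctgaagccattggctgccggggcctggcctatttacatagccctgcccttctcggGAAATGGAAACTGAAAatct
Oas1g: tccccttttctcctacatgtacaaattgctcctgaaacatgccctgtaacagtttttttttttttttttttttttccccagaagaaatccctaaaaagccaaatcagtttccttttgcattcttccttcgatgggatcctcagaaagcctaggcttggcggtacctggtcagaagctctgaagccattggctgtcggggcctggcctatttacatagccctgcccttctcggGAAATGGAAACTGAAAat
Ly6c1: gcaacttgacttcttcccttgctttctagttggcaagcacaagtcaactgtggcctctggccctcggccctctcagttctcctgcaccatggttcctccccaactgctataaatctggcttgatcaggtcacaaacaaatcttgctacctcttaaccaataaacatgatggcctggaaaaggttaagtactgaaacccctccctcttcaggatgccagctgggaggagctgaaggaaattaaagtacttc
Ly6c2: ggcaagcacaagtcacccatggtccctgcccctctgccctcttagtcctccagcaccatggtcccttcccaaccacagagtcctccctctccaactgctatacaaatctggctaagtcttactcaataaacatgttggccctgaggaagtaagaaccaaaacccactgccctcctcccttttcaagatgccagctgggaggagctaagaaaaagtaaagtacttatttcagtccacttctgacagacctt
Tgtp1 and Tgtp2 had 1 match each. Oas1a and Oas1g each had 2 matches that overlap in a single run. The windows of Ly6c1 and Ly6c2 held none, which says only that these letters are not there. In an alignment of the 2 windows, 82.8% of the columns were identical for Oas1a and Oas1g, 62.7% for Tgtp1 and Tgtp2, and 57.7% for Ly6c1 and Ly6c2. The motif was found in 978 of all 32851 promoter windows of this length (2.98%). Counted by gene, it was found for 936 of 27025 genes (3.46%) and for 90 of the 1418 genes listed by shared probe sets that have a window (6.35%). Of the 42 genes with a window that were listed by shared probe sets higher in MR20, 14 had it (33.3%), and of the 46 listed by those lower in DR500, 4 had it (8.7%). Genes of probe sets that rose in MR20 and fell in DR500, such as Tgtp1 and Tgtp2, count in both of these shares. None of the 17 genes listed by those lower in MR20 had the motif, and none of the 24 listed by those higher in DR500. These shares are descriptions, since listed genes are copies of each other.

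A probe set was put in a family when at least 2 of its symbols matched the family's name pattern. In the families listed as interferon-induced (oligoadenylate synthetases, guanylate-binding proteins, immunity-related GTPases, Ifi200 and Sp100 proteins) 8 shared probe sets met this rule, of which 7 rose in MR20, none rose in DR500 and 2 fell in DR500. When 1 matching symbol sufficed, a rule added after the data were seen, there were 21, of which 18 rose in MR20 (85.7%, beside 1.04% of all probe sets), none rose in DR500 (beside 1.61% of all) and 3 fell in DR500 (14.3%, beside 4.27% of all). The 13 of these with an Sp100 family symbol, among them those described further on, had 11 rises in MR20, and many of them are copies of each other. The immunity-related GTPases act on the vacuoles of intracellular pathogens. A first probe set of Tgtp2 and Tgtp1, members of that family, read 6.48, 6.58 and 6.64 in 4T1, 11.49, 11.37 and 11.45 in MR20, and 5.21, 5.08 and 4.95 in DR500. The MR20 arrays were far above and the DR500 arrays below all 4T1 arrays. The level was thus 29.2-fold higher in MR20 (log2 change 4.87 ± 0.08 SE, n = 3 arrays per line, limma adjusted p = 2.58e-08) and 2.81-fold lower in DR500 (-1.49, adjusted p = 3.29e-06). A second probe set of the same symbols gave 4.82 in MR20 and -1.51 in DR500. For Irgm2 and Igtp, which encode GTPases of the family, the arrays read 6.88, 6.68 and 6.92 in 4T1, 10.51, 10.46 and 10.44 in MR20, and 6.70, 6.88 and 6.88 in DR500. That is a 12.5-fold rise in MR20 (log2 change 3.64, adjusted p = 6.44e-08), whereas the DR500 arrays overlapped those of 4T1 (-0.01, adjusted p = 0.947).

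Olfr56 and Ifi47, an olfactory receptor gene and a GTPase gene of the same family, share a probe set and are neighbours within 1 Mb. It read 6.20, 6.15 and 6.24 in 4T1, 8.96, 8.94 and 9.02 in MR20, and 3.92, 4.32 and 4.33 in DR500. The 3 lines did not overlap, with a log2 change of 2.78 in MR20 (adjusted p = 9.35e-07) and -2.005 in DR500 (adjusted p = 2.93e-06). Both probe sets of 9930111J21Rik1 and 9930111J21Rik2, genes known by clone names, moved in the same manner, by 2.07 and 2.02 in MR20 and by -2.23 and -2.27 in DR500. In the RefSeq annotation, Tgtp1, Tgtp2, Ifi47, Olfr56 and the 9930111J21Rik genes are neighbours within 1 Mb on chromosome 11.

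Oas1a and Oas1g encode oligoadenylate synthetases, enzymes whose product activates RNase L. Their probe set read 6.62, 6.90 and 6.82 in 4T1, 10.66, 10.63 and 10.73 in MR20, and 6.91, 7.17 and 7.18 in DR500. It was 14.9-fold higher in MR20 (log2 change 3.90 ± 0.10 SE, adjusted p = 1.07e-07), whereas DR500 differed by 0.31, under the 2-fold limit. The guanylate-binding proteins are large GTPases induced by interferon. The probe set of 6 of them (Gbp11, Gbp10, Gbp9, Gbp6, Gbp8 and Gbp4) read 6.81, 6.92 and 7.02 in 4T1, 10.36, 10.17 and 10.27 in MR20, and 7.45, 7.66 and 7.71 in DR500. It was 10.2-fold higher in MR20 (log2 change 3.35, adjusted p = 1.36e-07) and 1.62-fold higher in DR500 (0.69, adjusted p = 0.000448). The probe set of Gbp2 and Gbp2b rose 6.51-fold in MR20 (log2 change 2.70) and was 1.91-fold higher in DR500 (0.93, adjusted p = 2.82e-05), again under the 2-fold limit. So the DR500 arrays of both probe sets lay above all 4T1 arrays and below all MR20 arrays.

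Isg15 encodes a ubiquitin-like protein that is attached to other proteins after interferon, and Gm9706 is a gene model with similar sequence on another chromosome. Their probe set read 5.57, 5.47 and 5.47 in 4T1, 8.62, 8.52 and 8.35 in MR20, and 5.65, 5.66 and 5.77 in DR500, a 7.96-fold rise in MR20 (log2 change 2.99, adjusted p = 1.3e-07). Both probe sets of Apol9a and Apol9b, apolipoproteins L, rose in MR20 by 2.54 and 2.59, with DR500 changes of 0.01 and -0.05. The Trim5 and Trim12 genes encode tripartite motif proteins related to antiviral restriction factors. Their 2 probe sets rose by 1.74 and 1.80 in MR20, and differed by 0.42 and 0.46 in DR500.

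The genes of the Sp100 family encode proteins of nuclear bodies, and on mouse chromosome 1 they lie in an array of copies that the annotation covers with many gene models. All 4 probe sets of Gm7592, LOC100041903, Gm2666, Gm7609 and Csprs rose in MR20, by 4.05 to 4.90. The one with the largest rise read 4.55, 4.08 and 4.08 in 4T1, 9.12, 9.13 and 9.16 in MR20, and 4.09, 3.88 and 3.83 in DR500 (29.8-fold in MR20, adjusted p = 1.32e-07). A linked probe set with Sp100 among its symbols rose by 2.41. In the group of Sp110 and Sp140 with their gene models, 6 of 8 probe sets rose in MR20, by 1.04 to 2.34, and none was called in DR500. Of these, the probe set with Sp140 but not Sp110 read 6.78, 7.01 and 7.09 in 4T1, 8.15, 7.95 and 7.91 in MR20, and 7.50, 7.76 and 7.97 in DR500, and its DR500 level did not pass the 2-fold limit (0.78, adjusted p = 0.0019). The 2 probe sets of Gm15753 and Sp110 have the same 9 values, so they count as 1 measurement.

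**Figure D1:**
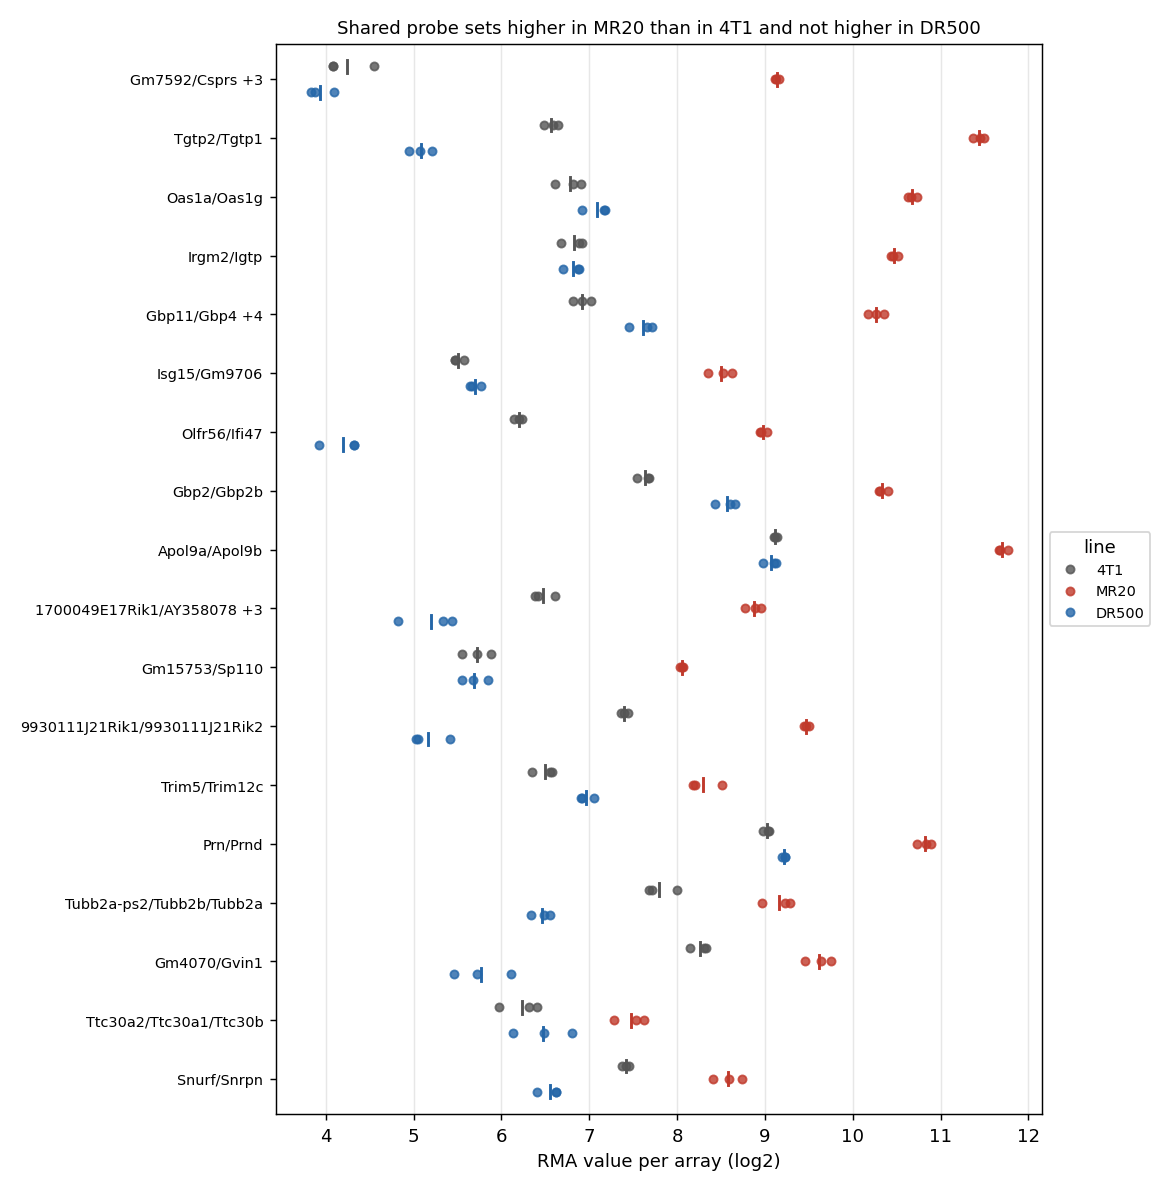
Level of each array (log2 RMA value, horizontal) for the 18 groups of shared probe sets with a rise in MR20 and none in DR500, 1 probe set per group, the one with the largest change in MR20; each point is an array (3 per line) and each vertical tick the mean of a line. The MR20 arrays lie to the right of all 4T1 arrays in every row, whereas DR500 lies near 4T1, between 4T1 and MR20 as for Gbp2 with Gbp2b, or to the left as in the row of Tgtp2 and Tgtp1 with 5.21, 5.08 and 4.95.

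Several further groups rose in MR20. The 3 probe sets of Gm4070 and Gvin1 (with up to 3 more gene models), which belong to very large GTPases induced by interferon, rose in MR20 by 1.14, 1.17 and 1.36. In DR500 they fell by 2.66, 3.02 and 2.49. The one that lists only Gm4070 and Gvin1 read 8.33, 8.30 and 8.15 in 4T1, 9.76, 9.46 and 9.64 in MR20, and 5.72, 6.11 and 5.47 in DR500. The spread within DR500 was wider for another, with 5.06, 5.68 and 6.36, but all its arrays stayed below 4T1. In a group of 7 probe sets around 1700049E17Rik1, AY358078 and their gene models on chromosome 14, 6 rose in MR20 by 1.36 to 2.40, and 2 of these changed by -1.27 and -1.06 in DR500, where the second was at -0.82 without DR500 replicate 1.

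Tubb2a and Tubb2b encode beta-tubulins, and their probe set, which also lists the pseudogene Tubb2a-ps2, read 7.68, 7.71 and 8.002 in 4T1, 9.29, 8.97 and 9.23 in MR20, and 6.48, 6.56 and 6.33 in DR500. It rose 2.57-fold in MR20 (adjusted p = 9.29e-05) and fell 2.53-fold in DR500 (adjusted p = 4.89e-05). The next 3 groups were picked with their values known. The probe set of Prn and Prnd, the latter encoding the prion-like protein doppel, rose by 1.80 in MR20 and stood at 0.20 in DR500. The probe set of Snurf and Snrpn, an imprinted transcript with a splicing protein, rose by 1.17 in MR20 and was lower in DR500 by 0.86 without passing the 2-fold limit. The 3 Ttc30 genes, which serve transport in cilia, share a probe set that rose by 1.25 in MR20.

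Only 2 groups rose in both selected lines. Prl2c2, Prl2c3 and Prl2c4 encode proliferins, secreted hormones of the prolactin family. Their probe set read 4.73, 5.13 and 4.91 in 4T1, 8.55, 8.85 and 8.89 in MR20, and 9.44, 9.72 and 9.79 in DR500. It was 14.3-fold higher in MR20 (log2 change 3.84 ± 0.14 SE, adjusted p = 6.66e-07) and 26.5-fold higher in DR500 (4.73, adjusted p = 1.16e-07), and the DR500 arrays were all above those of MR20 (0.89, adjusted p = 0.00138). Ly6c1 and Ly6c2 encode the lipid-anchored surface antigen Ly6C, a marker of myeloid cells and of some T cells. Their first probe set read 8.55, 8.66 and 8.73 in 4T1, 11.88, 11.88 and 11.69 in MR20, and 13.02, 13.01 and 13.05 in DR500, rises of 9.01-fold and 20.8-fold. The second rose by 2.94 and 4.02, and for both probe sets the step from MR20 to DR500 was itself called, by 1.21 and 1.09.

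Of the 13 rises in DR500, 3 belong to the groups above and the others were not called in MR20. Gsta1 and Gsta2 encode alpha class glutathione S-transferases, which couple glutathione to reactive compounds. All 4 probe sets of Gsta1, Gsta2, Gm3776 and Gm10639 rose in DR500, by 1.35 to 2.19. These copies make up most of the 6 shared probe sets of the glutathione S-transferase family, and so set its median change of 1.39, beside 0.02 over all probe sets. The others in the family were not called, and the lowest change was 0.08. The Gsta probe set with the largest change read 6.0002, 6.17 and 6.17 in 4T1, 6.31, 6.39 and 6.32 in MR20, and 7.93, 8.57 and 8.40 in DR500 (4.55-fold, adjusted p = 1.1e-05). A probe set of 8 Ugt1a genes, which are spliced to common last exons and encode enzymes that attach glucuronic acid, read 4.94, 4.76 and 4.77 in 4T1, 4.97, 5.07 and 4.94 in MR20, and 6.07, 6.09 and 5.96 in DR500 (2.33-fold, adjusted p = 5.03e-06).

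Cdkn1a encodes the cyclin-dependent kinase inhibitor p21 and shares a probe set with 4930567H12Rik on another chromosome. It read 8.43, 8.39 and 8.31 in 4T1, 9.14, 9.21 and 9.19 in MR20, and 10.06, 10.04 and 10.15 in DR500. The 3 lines did not overlap, and the rise was 3.26-fold in DR500 (adjusted p = 2.45e-07) and 1.74-fold in MR20, which is under the 2-fold limit. The probe set of C1ra and C1rb, proteases that start the classical complement cascade, rose 3.06-fold in DR500 (adjusted p = 3.03e-05). Its DR500 arrays stood at 9.10, 9.39 and 9.65 against 7.67, 7.74 and 7.89 in 4T1. A probe set of C1ra alone was higher by 0.98 in DR500 (adjusted p = 0.0021), under the 2-fold limit. Rnase4 and Ang encode 2 secreted ribonucleases and have an identical promoter window in RefSeq. Their probe set read 7.47, 7.55 and 7.62 in 4T1, 7.06, 7.02 and 6.99 in MR20, and 8.64, 8.97 and 9.04 in DR500. It thus rose by 1.33 in DR500 and was lower by 0.52 in MR20 (adjusted p = 0.00667). The probe set of the deubiquitinase genes Usp17la, Usp17lc, Usp17ld and Usp17le rose by 1.22 and that of the non-classical MHC class I genes H2-Q6 and H2-Q8 by 1.17.

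**Figure D2:**
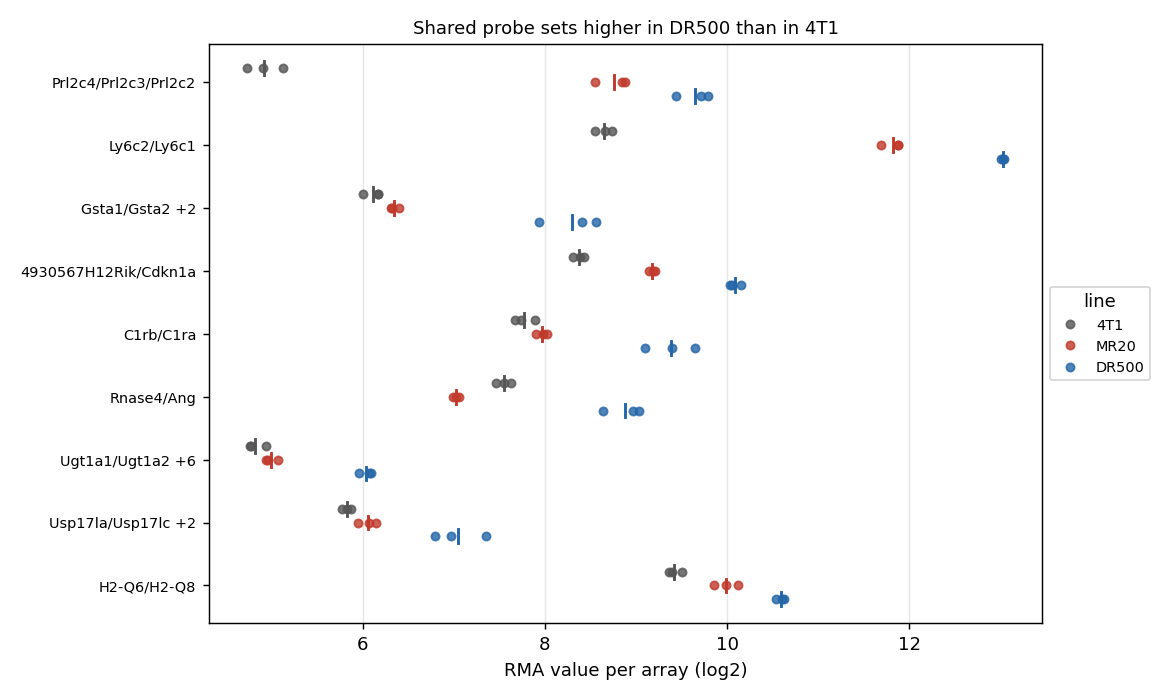
Level of each array (log2 RMA value, horizontal) for the 9 groups of shared probe sets with a rise in DR500, 1 probe set per group, the one with the largest change; each point is an array (3 per line) and each vertical tick the mean of a line. The MR20 arrays lie close to DR500 for the Prl2c and Ly6c groups and close to 4T1 for Gsta, where they read 6.31, 6.39 and 6.32.

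In both selected lines 7 shared probe sets fell, of which 2 list a host of small RNAs. Rpl22l1 encodes a paralogue of a ribosomal protein of the large subunit. Its first probe set, shared with Gm15421, read 9.19, 9.17 and 9.50 in 4T1, 7.66, 7.71 and 7.42 in MR20, and 6.33, 7.18 and 7.10 in DR500. It fell 3.22-fold in MR20 (adjusted p = 0.000768) and 5.34-fold in DR500 (adjusted p = 5.85e-05), and the second fell 3.32-fold and 5.61-fold. Snhg7 and Snhg8 are host RNAs of small nucleolar RNAs, which guide the modification of other RNAs. The probe set of Snhg8 and Snora24 fell by 1.32 in MR20 and by 1.54 in DR500, and that of Snhg7 and Snora43 fell by 1.00 and 1.67. The probe set of Tagap and Tagap1 fell by 1.32 and 1.24. It read 10.35, 10.23 and 10.42 in 4T1, 9.06, 8.85 and 9.12 in MR20, and 9.03, 9.03 and 9.21 in DR500. A probe set of Rex2, Zfp979 and 4 more zinc finger genes fell by 1.16 and 1.25, and 1 of 2 probe sets of 4933434E20Rik and 1700094D03Rik fell by 1.08 and 1.56, whereas the other stood at -0.49 and -0.44 (adjusted p = 0.0557 and 0.0604). In MR20 alone, the probe sets of Abhd18 and Gm2011, of Selenok and BC052688, and of the Evi2 genes fell, by 1.09, 1.08 and 1.01. The falls of Snhg7 and of the Evi2 genes in MR20 lay at the 2-fold limit and lost their call when each array was centred on its median (-0.96 and -0.97).

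Top2a and Hibadh are a topoisomerase gene and a gene of valine breakdown on different chromosomes. Among shared probe sets not called in MR20 against 4T1, their 2 probe sets had the largest fall in DR500. The first read 8.50, 8.62 and 8.90 in 4T1, 8.58, 8.85 and 8.74 in MR20, and 5.79, 6.93 and 6.93 in DR500. All DR500 arrays were below 4T1, with the first far below the other two, and the log2 change was -2.12 ± 0.29 SE (adjusted p = 0.000546). The probe sets of Apoo, a protein of the inner mitochondrial membrane, and its pseudogene changed by -1.68 and -1.57, and both of Rmnd1, a protein of mitochondrial translation, and Gm5512 by -1.59. For the first Apoo probe set the arrays read 11.85, 11.88 and 11.996 in 4T1, 12.24, 12.20 and 12.22 in MR20, and 9.84, 10.40 and 10.44 in DR500. Replicate 1 was the lowest of the DR500 arrays in 29 of the 39 falls in DR500, by up to 1.19. The same was not counted over all probe sets. Without this replicate 36 shared probe sets fell.

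The other falls in DR500 were smaller, and they were picked for description with their values known. The 2 probe sets of Hspa8, which encodes a constitutive chaperone, with the nested Snord14c and Snord14d fell by 1.39 and 1.38, that of Rps13 with Snord14a by 1.32, that of Eif5 with Snora28 by 1.47 and that of Rpl12 with Snora65 by 1.10. The 7 brighter probe sets of Rpl12 with Gm32899 (levels of 13.48 to 13.86 in 4T1) differed by -0.07 to -0.12 in DR500, with adjusted p-values of 0.142 to 0.285. The 2 probe sets of Zfp932 and Gm15446 fell by 1.11, which became -0.96 without DR500 replicate 1 and lost the call, and by 1.39, that of the splicing kinase gene Clk2 with Gm45927 by 1.17, and both of the spermine synthase gene Sms with Gm8234 by 1.06 and 1.07. One of 2 probe sets of the X-linked zinc finger genes Zxda and Zxdb fell by 1.18, and both were higher in MR20 than in 4T1 by 0.73 and 0.75, under the 2-fold limit. The remaining 3, of Cmc4 with Mtcp1, 1 of the 3 of Cdh11 with 2 clone-named genes, and 1 of the 2 of Zfp950 and Zfp932 with 3 more genes, changed by -1.04, -1.01 and -1.01, and each lost its call without DR500 replicate 1. Mir17hg is the host of a microRNA cluster that includes Mir92-1, and their probe set fell by 1.03 in DR500, with 5.97, 6.28 and 6.62 in 4T1, 5.57, 5.54 and 5.36 in MR20, and 5.33, 5.32 and 5.13 in DR500. The fall lost its call under 4 alternatives, down to -0.87 without 4T1 replicate 3. The array does not separate the hairpin from its host, so the mature products are shown only to identify what the symbol stands for, from RefSeq (GRCm38.p6) at chr14:115044437-115044459 and chr14:115044476-115044496 on the plus strand, 5′ to 3′, with the seed (bases 2 to 8) in capitals.
mmu-miR-92a-1-5p: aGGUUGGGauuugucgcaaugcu
mmu-miR-92a-3p: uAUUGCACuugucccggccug

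**Figure D3:**
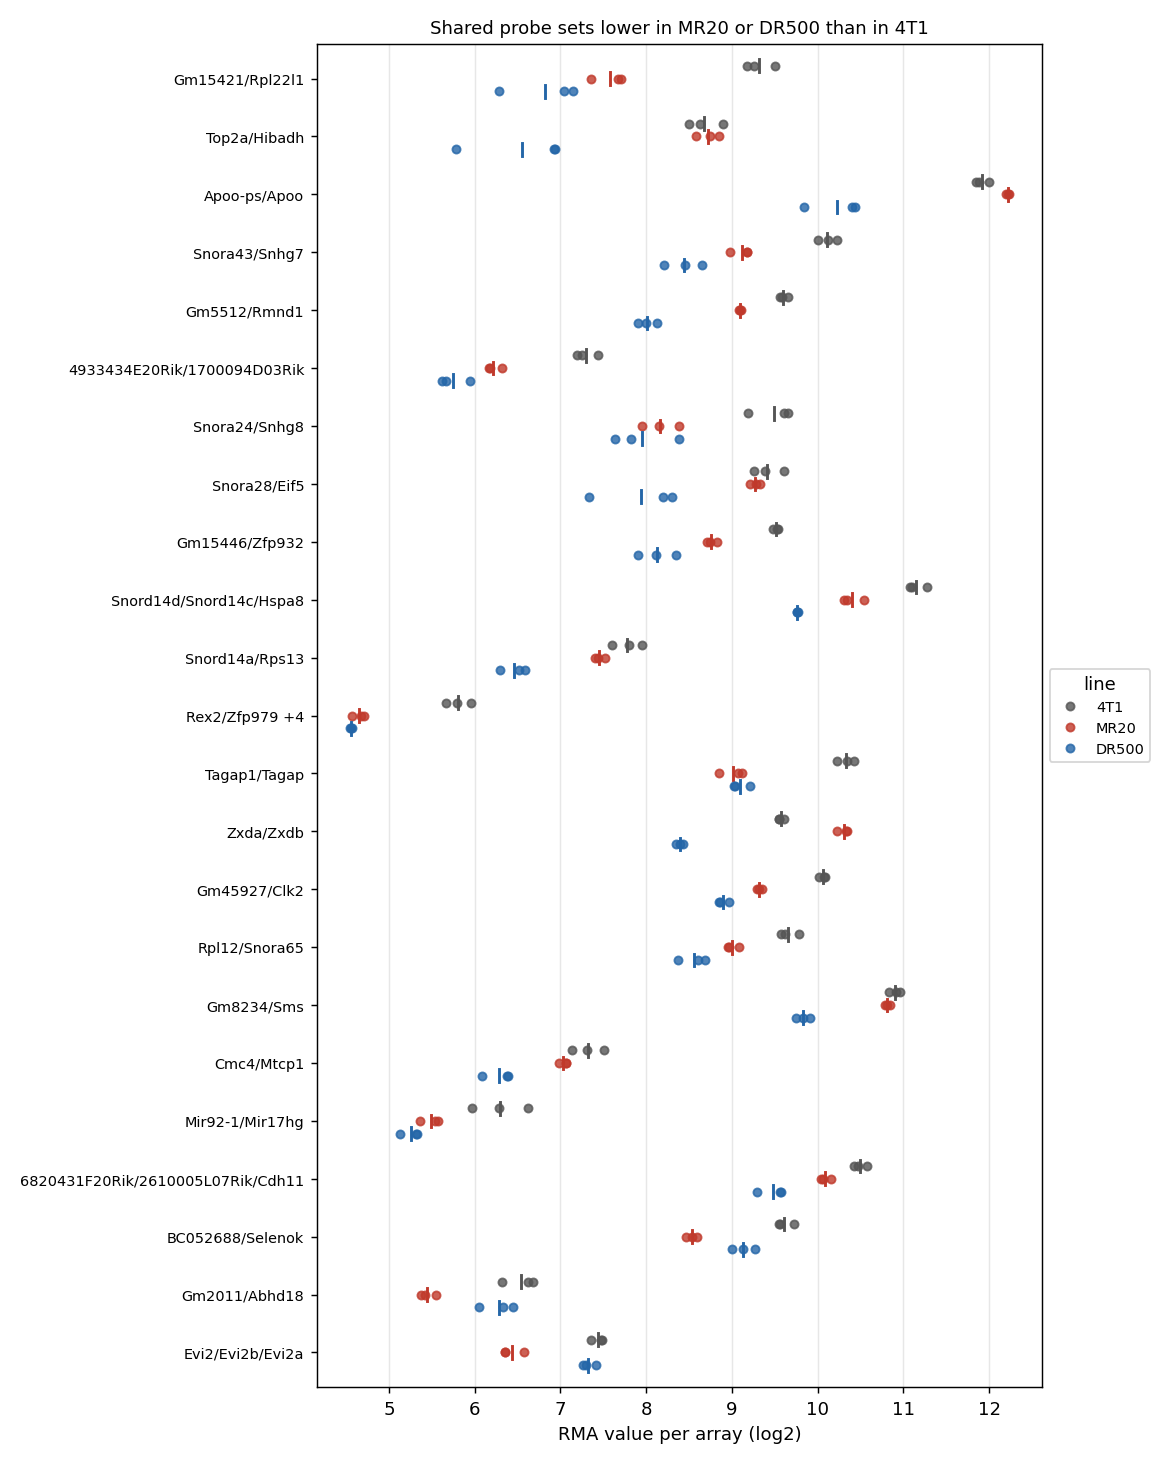
Level of each array (log2 RMA value, horizontal) for the 23 groups of shared probe sets with a fall in MR20, or with a fall in DR500 and no rise in MR20, 1 probe set per group, the one with the largest change in DR500; each point is an array (3 per line) and each vertical tick the mean of a line. The MR20 arrays lie between the other lines for Rpl22l1 with Gm15421 and on the 4T1 side for Top2a with Hibadh, where DR500 read 5.79, 6.93 and 6.93.

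Between the selected lines, Tgtp2 with Tgtp1 was 81.8-fold lower in DR500 than in MR20 (log2 change -6.35, adjusted p = 4.57e-09), the Csprs group up to 36.8-fold lower, Olfr56 with Ifi47 27.5-fold and Irgm2 with Igtp 12.6-fold. On the other side, 4 Gsta probe sets (1.29 to 1.96), Rnase4 with Ang (1.86) and C1rb with C1ra (1.41) were higher in DR500, all called. A probe set of 1700001F09Rik, BC061237 and 3 gene models, with a difference of -1.01, a probe set of 1700049E17Rik1 (-1.41) and the second one of Zxda and Zxdb (-1.66) were called in this comparison alone, and they too were picked with their values known.

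To see how a shared level stood to those of its genes, it was set beside probe sets that list only 1 of the same symbols. Of the 85 called shared probe sets, 36 had such a neighbour. In MR20, all 23 called members with one had at least 1 of the same sign, and for 12 of them one was itself called in the same direction. In DR500, it was 19 of 20 and 8. The count of signs includes partners near 0, such as Prn alone at 0.05 in MR20. Where a member had several partners, 1 of the same sign sufficed. The same was not counted for uncalled members, so the sign counts are a description only. No single-symbol probe set was called in the opposite direction to its shared partner. Gbp4 alone rose by 3.75 in MR20 and Gbp9 alone by 2.49, beside 3.35 for the shared probe set, whereas Gbp11 and Gbp8 alone rose by 1.498 and 1.16. Oas1a alone rose by 3.37, beside 3.90 with Oas1g, and Sp100 alone by 2.33, beside 2.41.

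Other pairs differed. Tubb2b alone rose by 1.31 in MR20 and fell by 2.57 in DR500, like the shared probe set, whereas Tubb2a alone stood at -0.08 and 0.22. Zfp979 alone fell by 3.45 and 3.72, beside 1.16 and 1.25 for the probe set with Rex2, whereas the probe sets of Zfp980 and Zfp600 alone were dim in all lines (2.71 to 3.33) and cannot show a fall. Usp17la alone rose by 1.996 in DR500, beside 1.22 for the 4 genes together, whereas Usp17ld and Usp17lc alone stood at 0.54 and 0.34 and were not called. Prn alone stood at 0.05 in MR20, beside 1.80 with Prnd, and Tagap alone at -0.07 and 0.06, beside falls of 1.32 and 1.24 with Tagap1. These probe sets of Prn alone (5.51 to 5.55) and Tagap alone (5.65 to 5.78) were dim in all lines. Their small differences thus do not show that the genes were unchanged.

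For genes with nested small RNAs and for Top2a, the single-symbol probe sets moved less. One probe set of Top2a alone had means of 11.96 in 4T1 and 11.87 in DR500 (log2 change -0.10, adjusted p = 0.294) and one of Hibadh alone 11.19 and 11.13, whereas a second, dim probe set of each fell by 1.38 and 1.31. The 3 probe sets of Hspa8 alone differed by -0.09, -0.09 and -0.29 in DR500, and the 3 of Rps13 alone by -0.42, -0.40 and -0.44, which are below the 2-fold limit. Eif5 alone differed by -0.40. In contrast, Mir17hg alone fell in both lines, with changes of -1.14 and -1.598, and a probe set of Rpl12 alone (level of 9.62 in 4T1) fell by 1.33 in DR500, unlike the 7 bright ones with Gm32899.

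**Figure D4:**
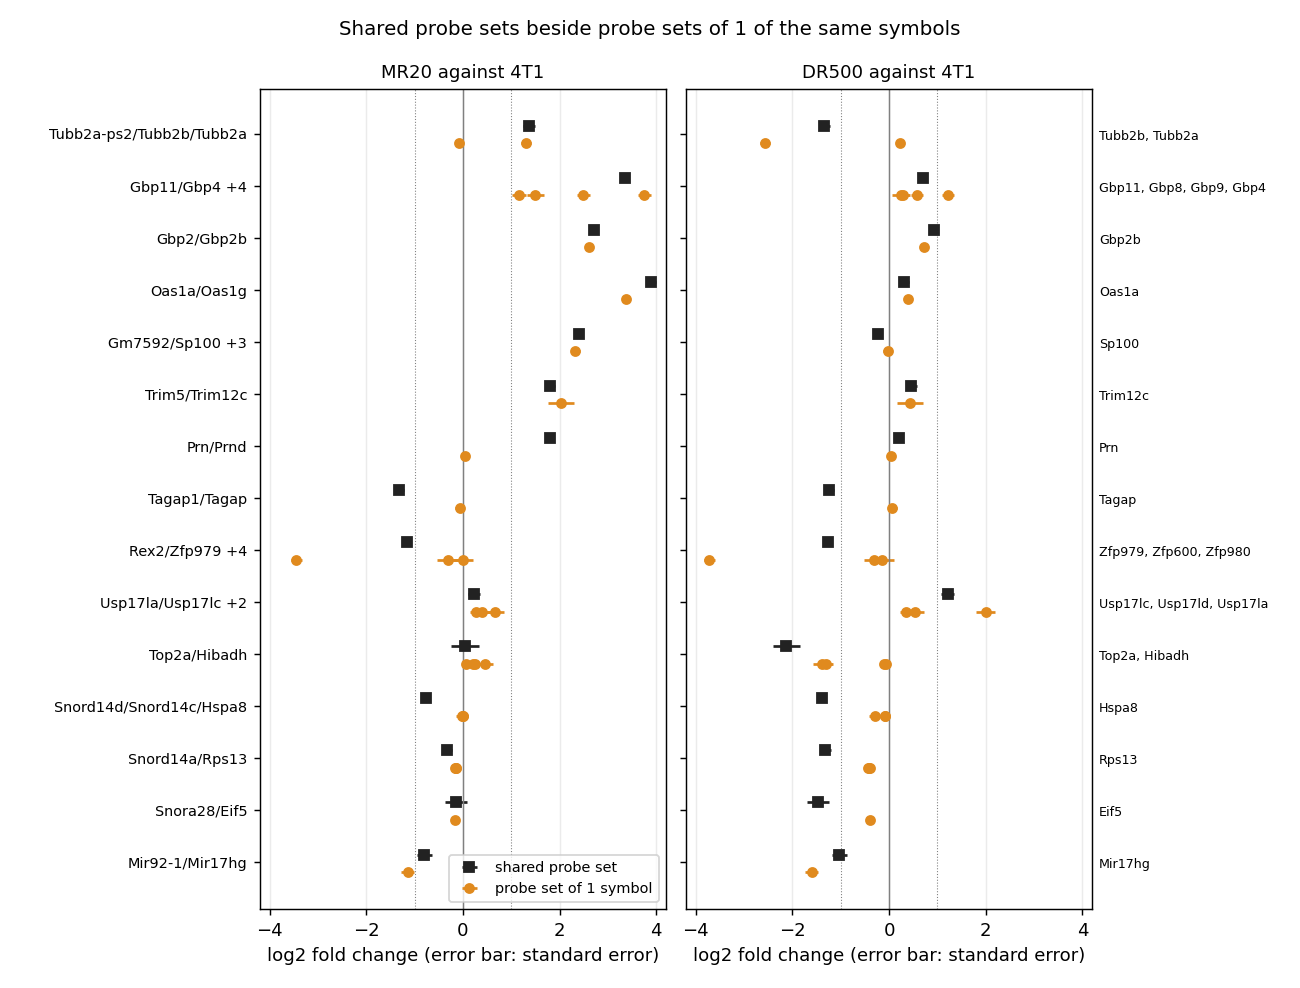
Log2 fold change against 4T1 (horizontal; left MR20, right DR500) of 15 called shared probe sets (squares) and of probe sets that list 1 of the same symbols (circles, named at the right margin), with the standard error as bars and dotted lines at 2-fold. Circles lie on both sides of the square for Gbp11 to Gbp4, with Gbp4 alone at 3.75 and Gbp8 alone at 1.16 in MR20, and near 0 for the dim probe sets of Prn and Tagap.

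Most shared probe sets were not called. Of the 1621, 624 matched one of 50 families, and 34 of these families had no called member. The 40 histone probe sets, which list up to 20 symbols, had a median change of 0.04 in MR20 and 0.01 in DR500, and none passed an adjusted p of 0.05 in either, beside 22% of all probe sets in MR20 and 32.9% in DR500. Among 98 olfactory receptor probe sets the changes ranged from -0.20 to 0.29 in MR20 and from -0.20 to 0.35 in DR500, and none passed either. The same held in MR20 for 65 vomeronasal, 48 Prame-like, 42 T cell receptor and 16 immunoglobulin probe sets, whereas in DR500 2 vomeronasal and 3 T cell receptor probe sets passed an adjusted p of 0.05 without reaching 2-fold. The 3 probe sets with at least 2 symbols of type I interferon genes ranged from -0.09 to 0.03 in MR20 and from -0.21 to 0.21 in DR500, with none called. With 1 such symbol there were 21, mostly copies that list Ifnz with gene models, and 18 of them were lower in MR20 and 15 lower in DR500 at an adjusted p under 0.05, with medians of -0.34 and -0.30 and none called. The 7 chemokine probe sets, copies in 2 linked groups of Ccl21 and Ccl27 genes, were not called either. Other chemokine genes are not covered by them.

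Ribosomal proteins and small RNAs moved mostly by small amounts. Over all probe sets, 22% passed an adjusted p of 0.05 in MR20 and 32.9% in DR500, in either direction. All 27 probe sets with at least 2 ribosomal protein symbols were lower in DR500, 24 with an adjusted p under 0.05, but none by 2-fold, and the median was -0.26, beside 0.02 over all probe sets. In MR20 the median was -0.13, beside -0.01 over all, and 7 passed. With 1 such symbol there were 239, many of them copies, of which 238 were lower in DR500, 109 with an adjusted p under 0.05, with a median of -0.16, and 4 were called as falls (1.67%, beside 4.27% of all). The 118 probe sets that list a small RNA had medians of -0.06 in MR20 and -0.25 in DR500. Some of them list small RNAs only and no host gene. In MR20 2 of the 118 fell (1.69%, beside 0.945% of all), and in DR500 8 fell (6.78%, beside 4.27% of all). Of 28 zinc finger probe sets, 13 were lower and 4 higher in MR20 at an adjusted p under 0.05, and 18 lower and 1 higher in DR500. Called as falls were 1 in MR20 (beside 0.945% of all probe sets) and 2 in DR500 (beside 4.27% of all). With 1 zinc finger symbol there were 43, of which 1 fell in MR20 (2.33%), 4 fell in DR500 (9.3%) and none rose. The 5 probe sets of Hnrnpa1 with its copies, of a protein that binds nascent RNA, were lower in DR500 by 0.46 to 0.50, but among the 15 with 1 hnRNP symbol 6 were higher and 6 lower at an adjusted p under 0.05, and none was called. The MHC class I family had 7 probe sets, of which 5 were higher in each selected line at an adjusted p under 0.05. Only 1, that of H2-Q6 and H2-Q8, was called, as a rise in DR500 (beside 1.61% of all probe sets).

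**Figure D5:**
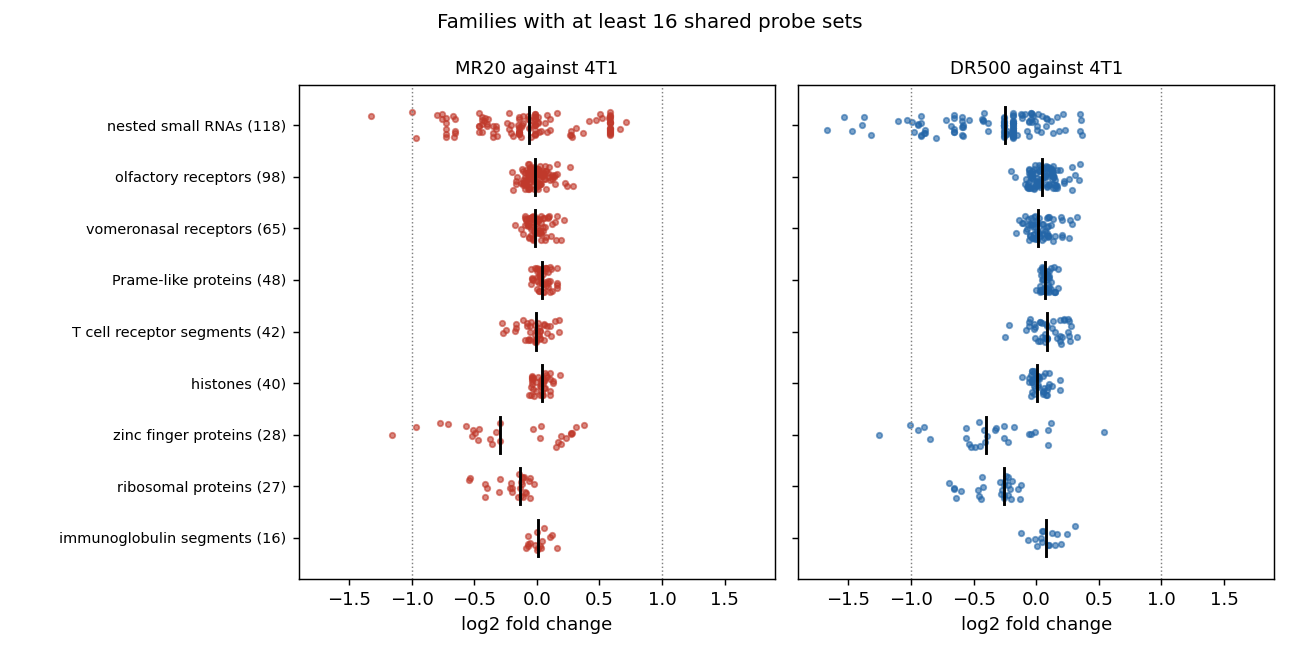
Log2 fold change against 4T1 (horizontal; left MR20, right DR500) of every shared probe set in the 9 families with at least 16 of them, 1 point per probe set, with the median as a black bar and dotted lines at 2-fold; points are spread vertically at random within a row. Receptor and histone families stay within the dotted lines, with histone medians of 0.04 and 0.01, whereas the probe sets with a small RNA reach -1.32 in MR20 and -1.67 in DR500.

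The shared probe sets were of several kinds. In 660, at least 2 named genes had a common stem, 413 held 1 named gene with gene models, 294 named genes of different stems, 136 gene models only, and 118 a small RNA, with or without a host gene. By RefSeq position, 687 listed genes that neighbour each other within 1 Mb, 536 listed genes on different chromosomes, 258 genes farther apart on a chromosome, and 121 overlapping genes. Rises in MR20 made up 4.96% of the probe sets with overlapping genes and 3.1% of those with genes farther apart on a chromosome. The share was 2.91% for neighbours and 1.31% for genes on different chromosomes, beside 1.04% of all probe sets. Falls in DR500 made up 9.09%, 1.16%, 1.89% and 2.24% in the same order, beside 4.27% of all. Copies count separately in these shares, such as the 4 probe sets that list Csprs, all with overlapping genes. No probe set with at least 10 symbols, of which there were 157, was called in any comparison. Probe sets with the same symbols (287 sets of symbols with 1110 probe sets) were mostly uncalled, with a median range of log2 changes of 0.03 in MR20 and 0.04 in DR500. Of the 20 such sets with a call, 15 had the same call for all copies, and ranges reached 0.85 in MR20 (Csprs) and 1.11 in DR500 (4933434E20Rik). In addition, 259 shared probe sets had the same 9 values as another, so such copies are not independent measurements.

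The arrays were alike in level, with medians from 6.24 to 6.38. They correlated at 0.992 to 0.996 within a line and 0.966 to 0.988 between lines. DR500 replicate 1 deviated most from the mean of its line (root mean square of 0.20, beside 0.13 to 0.17 for the other arrays). Of the epithelial markers, Krt8 and Krt18 were bright in all lines (12.63 to 13.60), but Cdh1 and Epcam stood at 11.05 and 11.01 in 4T1 and at 7.21 and 6.82 in DR500. The 3 leukocyte markers with a probe set ranged from 4.15 to 6.29 and the 2 endothelial ones from 5.13 to 5.65 over the lines. Of the fibroblast markers, Pdgfra stood at 8.37 in 4T1, 7.74 in MR20 and 10.07 in DR500, Col1a1 at 7.15, 7.01 and 7.32, and Dcn at 5.18, 5.19 and 5.74. The part of these differences in the results of DR500 was not tested. The DR500 arrays carry labels of another style, and array batches are not given in the sources used here, so batch and line cannot be told apart for them.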

How the data were processed

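Total RNA of 4T1, MR20 and DR500 cells was measured on 9 whole-transcript mouse arrays, 3 per line. The deposited log2 values were made by the authors by RMA with affy; the study assigned probes by NCBI Build 36. Versions and array batches are not given in the sources used here. The platform annotation gave 23410 of 35556 probe sets a symbol, and the 1621 with at least 2 symbols were kept as they stand. RefSeq (GRCm38.p6) held 2007 of their 2032 gene identifiers and served for names, neighbours, promoters and microRNAs. Fold changes came from 1 limma 3.58.1 fit (R 4.3.3) of all 9 arrays and all probe sets, with a mean per line and Benjamini-Hochberg adjustment over all probe sets, and the fit was checked on simulated data. A change was called at an adjusted p under 0.05 and over 2-fold. An exact permutation test of 3 against 3 arrays cannot go below 0.1 and was not used. The number of arrays limits the precision.

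The members and families were chosen with earlier results of these data known. Named were, among called probe sets with arrays apart, the 15 largest rises and falls of each selected line against 4T1, the 8 largest each way between the selected lines, the 2 largest of each family, and those called in opposite directions. The rule named 55 of the 85 called probe sets, and others named in the report were chosen after their values were seen. Same-numbered arrays did not deviate together (correlations from -0.189 to 0.258), so numbers do not pair them.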

Additional observations from a re-analysis of the deposited data

Results flagged for a closer look

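Between DR500 and MR20, 11 shared probe sets stand out because they rose in MR20 and fell in DR500 against 4T1, and the limma contrast of the lines gave the size of each difference. The 2 probe sets of Tgtp2 and Tgtp1 were lower in DR500 than in MR20 by 6.35 and 6.33 on the log2 scale (values -6.35 and -6.33), and that of Olfr56 and Ifi47 by -4.78. The 2 of 9930111J21Rik1 and 9930111J21Rik2 differed by -4.30 and -4.29. The 3 of Gvin1 with Gm4070 differed by -3.80, -3.85 and -4.19, where the last lost its call in MR20 without MR20 replicate 1 (adjusted p = 0.0543) or without MR20 replicate 3 (adjusted p = 0.0535). The 2 around 1700049E17Rik1 differed by -3.06 and -3.68, and that of Tubb2b, Tubb2a and Tubb2a-ps2 by -2.71. The adjusted p-values were at most 8.14e-06, but a difference of this direction and of over 4-fold was fixed by choosing probe sets called in opposite directions against the same 4T1 arrays, so they are given as a description.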

How the results depend on the processing

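Of 161 results of called shared probe sets, 147 kept their call and direction under all alternatives run and none reversed; the 14 others lay near 2-fold, apart from a Gvin1 probe set. Averaging probe sets of the same symbols lowered the falls in DR500 from 39 to 25 and the probe sets higher in DR500 than in MR20 from 9 to 5, since copies then count once. Leaving out 1 array gave 39 to 42 rises and 8 to 11 falls in MR20, 13 to 16 rises and 34 to 50 falls in DR500, and 9 to 10 rises and 46 to 56 falls between them. With the replicate number as a block, the counts were 41 and 10, 13 and 39, and 9 and 49, as without it. Among the 14, Mir92-1 with Mir17hg stood at -0.98 after repeated quantile normalization, and Snhg7 in MR20 at -0.99. Centring moved the falls of all probe sets in DR500 from 1520 to 1355 and the rises from 572 to 644, and repeated quantile normalization to 1312 and 672.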
